A study of Rattus norvegicus with 12 samples.

Results

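*Nqo1*, *Akr1b1*, *Akr1b8*, *Akr1c15*, *Cbr1*, *Ptgr1*, *Adh7*, *Ces1a*, *Osgin1* and *Ephx1* are 10 rat genes, most of them for enzymes that reduce quinones, aldehydes and ketones or hydrolyse esters and epoxides. They were taken by name, as every probe whose RefSeq accession belongs to one of these genes. The rule found 12 probes, 1 for each gene and another for *Akr1b1* and *Cbr1*, among 45598 probes other than controls. All 10 genes had a tested probe, among 10741 named genes that had one. All of them except *Osgin1* and *Ephx1* had been picked by the study, from these same arrays, as increased by GR24, so their rise with GR24 is not independent evidence of its direction.

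Quinones and reactive carbonyls reach cells as foreign compounds or arise inside them from oxidised lipids, sugars and steroids. NAD(P)H quinone dehydrogenase, the product of *Nqo1*, reduces quinones to hydroquinones, aldo-keto and carbonyl reductases turn aldehydes and ketones into alcohols, and other enzymes cleave esters and epoxides. Many of these genes carry antioxidant response elements that bind the transcription factor Nrf2, some are also targets of the aryl hydrocarbon receptor, and skeletal muscle uses such enzymes to dispose of aldehydes that form from lipids.

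The study treated myotubes of L6, a rat skeletal muscle line, with plant-derived or related small molecules and measured RNA on 1-colour Agilent arrays. All 4 groups were L6 myotubes differentiated in horse serum and treated for 24 h: with DMSO alone (control), or in DMSO with 60 µM GR24, 60 µM pinosylvin or 60 µM resveratrol. Each group had 3 arrays, from 3 independent experiments per the study's methods, so p-values measure the spread between cultures of 1 line. The labels give 6 days of differentiation before treatment, and the methods give a day longer. GR24 is a synthetic strigolactone, while pinosylvin and resveratrol are stilbenes, and resveratrol carries one hydroxyl group more than pinosylvin. Doses and times were matched, so every pair of groups can be compared.

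Each array had 58717 spots, of which 58.0% to 64.3% were well above background and 0 were saturated. The level of a gene is the log2 of its background-subtracted signal minus that of the 75th percentile of its array, so levels are compared between groups for a probe, never between probes. Differences of 2 groups are log2 differences with limma's standard error (SE), and a gene was called where its p-value, adjusted over all 24279 tested probes, was below 0.05. The number of arrays limits the precision.

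The label of the cells was set against 12 markers of myotubes, of which all 12 were tested and well above background on the control arrays. Their summed signal, in units of the 75th percentile of the array, was 969.3, 1065 and 937.7 on the control arrays and 413.8, 399.6 and 384.7 on the GR24 arrays. It was 1062, 1117 and 1030 with pinosylvin and 834.3, 890.2 and 804.9 with resveratrol. The sum was thus lowest on the GR24 arrays and highest, with some overlap with the control, on the pinosylvin arrays, and the probe that added most to it was that of *Myh3* on each array, which does not rank the genes.

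Of the 12 markers, 10 were lower with GR24 than in the control (median log2 difference -1.87), 6 were lower with resveratrol and 2 were higher with pinosylvin, where 25.5%, 8.99% and 8.28% of all tested probes were called in these directions. The 6 include *Myog* and *Cav3* (adjusted p = 0.0375 and 0.039), whose calls were both lost with no filter on dim probes (0.101 and 0.121). Both were also lost without control replicate 1 (0.107 and 0.0935) or 2 (0.108 and 0.13). The same held without resveratrol replicate 1 (0.0823 and 0.1) or 3 (0.0954 and 0.128). It held too without pinosylvin replicate 1 (0.0515 and 0.0556) or 2 (0.0526 and 0.0532), and each call alone was lost in further settings. *Myog*, for the myogenic factor myogenin, fell by 5.83 on the log2 scale with GR24, and *Acta1*, for skeletal alpha-actin, fell by 3.88. *Actc1* fell by 2.90, *Ckm* by 2.58 and *Cav3* by 2.44. *Myod1* was not well above background on any GR24 array and was at least 3.21-fold higher in the control, a bound set by the faintest signal still well above background. In RNA of whole cultures, fewer cells of a type and less RNA per cell cannot be told apart. These markers moved with GR24 beside the genes described here, and their part in the results was not tested.

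Markers of other cells were looked at in the same way. None of 6 hepatocyte markers and none of 4 adipocyte markers on the arrays could be tested, since none was well above background throughout a group. Of 5 macrophage markers 2 were tested, *Ptprc*, which marks blood cells, was well above background on 0 arrays, *Cd68* was 2.67 higher with GR24 on the log2 scale, and *Csf1r* differed by -0.03 and was not called. The summed signal of those tested was 0.140, 0.164 and 0.250 on the control arrays and 0.719, 0.769 and 0.753 with GR24, and the *Cd68* probe added most to it. It was 0.183, 0.194 and 0.262 with pinosylvin and 0.154, 0.196 and 0.228 with resveratrol. Of 6 markers of undifferentiated myoblasts or fibroblasts, 1 was higher and 4 were lower with GR24, where 31.5% and 25.5% of all tested probes were called. With pinosylvin 2 were higher and 1 was lower, where 8.28% and 8.27% of probes were called. With resveratrol 1 was higher and 0 were lower, where 7.99% and 8.99% were called. The summed signal of the 6 markers was 12.2, 12.1 and 13.2 on the control arrays and 7.04, 7.34 and 7.01 with GR24. It was 10.32, 9.911 and 10.04 with pinosylvin and 10.9, 12.7 and 12.3 with resveratrol, and the probe of *Thy1* or *Myf5* added most to it. The part of these markers in the results was not tested.

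Against the control, 9 of the 10 genes were higher with GR24 and 0 were lower, while 31.5% of all tested probes were called higher and 25.5% lower. Their median log2 difference was 1.65, beside 0.03 over all tested probes. With pinosylvin, 6 were higher and 1 was lower (median 0.36, beside 0.05 over all probes), where 8.28% of probes were called higher and 8.27% lower, 2010 and 2009 of them. With the replicate number as a block these became 3954 and 2993, and 7 of the genes were higher and 1 lower. With resveratrol, 8 were higher and 0 were lower (median 0.95, beside 0.01 over all probes), where 7.99% of probes were called higher and 8.99% lower, 4123 in all. With the block 3419 were called higher and 3350 lower, and 9 of the genes were higher and 0 lower. The comparisons with the control share the control arrays, and most of the genes had been chosen for their rise with GR24 over these arrays. Nothing is read from the first of these counts. The choice also bears on the counts and medians with pinosylvin and resveratrol, which are a description only.

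The compounds were also compared with each other directly, in 3 pairs, which makes 6 pairs of groups in all. GR24 was above resveratrol in 7 genes and below it in 2, where 27.4% of all tested probes were called higher and 23.9% lower. It was above pinosylvin in 8 genes and below it in 1, where 29.6% of probes were called higher and 26.8% lower. Resveratrol was above pinosylvin in 5 genes and below it in 0, where 6.85% of probes were called higher and 7.68% lower, 1664 and 1864 of them. With the replicate block these became 2816 and 3507, and 6 of the genes were higher and 0 lower. With quantile normalization 2000 probes were higher and 1590 lower, so the balance of all probes has no settled direction. The median log2 differences of the 10 genes were 1.00, 1.14 and 0.44 for these 3 pairs, beside 0.02, -0.00 and -0.02 over all tested probes. The choice of most of these genes for their rise with GR24 also bears on both pairs with GR24, so nothing is read from those counts and medians either.

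**Figure D1:**
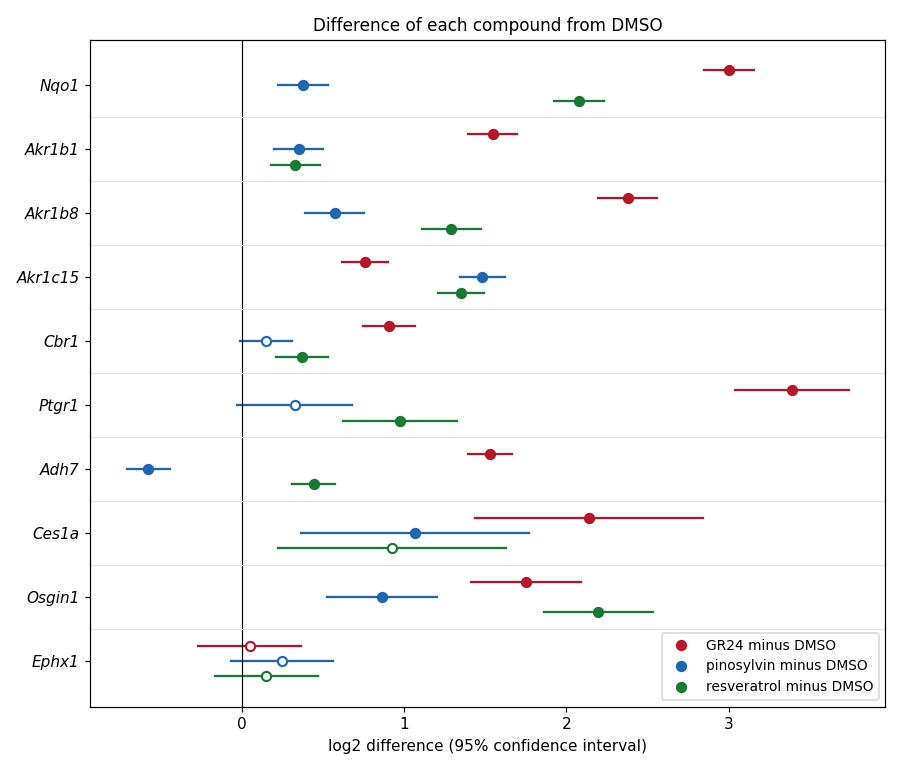
Log2 difference of each compound from the DMSO control for the 10 genes (x axis, log2), with bars for the 95% confidence interval; filled points were called and open points were not. GR24 lies farthest to the right for *Ptgr1* at 3.39 and *Nqo1* at 3.00, while for *Akr1c15* and *Osgin1* it lies to the left of resveratrol, and pinosylvin lies below zero for *Adh7*.

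The order of the 4 group means differed between the genes. In *Nqo1*, *Akr1b8*, *Cbr1* and *Ptgr1*, 4 of the 10, it ran from GR24 through resveratrol and pinosylvin down to the control. In *Akr1b1* and *Ces1a* pinosylvin stood before resveratrol, a step that was not called in either gene. In *Adh7* pinosylvin stood below the control. *Akr1c15* had pinosylvin first, then resveratrol, then GR24, and *Osgin1* had resveratrol first, then GR24 and then pinosylvin. *Ephx1* had the same order of means as *Akr1c15*, with none of its steps called.

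GR24 was thus the highest group in 7 genes, pinosylvin in 2 and resveratrol in 1. Those 7 had all been picked by the study for their rise with GR24, so its first place in them is not evidence about the compounds. The control was the lowest group in 9 genes and pinosylvin in 1. Most of the genes were picked as higher with GR24 than on these control arrays, so the low place of the control is not evidence either. For *Ephx1* the last place of the control is not settled. There GR24 was below the control on slide 1 alone (-0.07), without GR24 replicate 3 (-0.12) and with normexp and the 75th percentile (-0.0082). All 3 steps between neighbours in the order were called in 4 genes, *Nqo1*, *Akr1b8*, *Adh7* and *Osgin1*. In *Akr1b1*, *Akr1c15* and *Ptgr1* 2 of the 3 steps were called, in *Cbr1* and *Ces1a* 1, and in *Ephx1* 0. How many of all tested probes had as many called steps was not counted, so these numbers are a description only. With quantile normalization, with normexp before it and in the deposited table, *Ephx1* had resveratrol first, so that pinosylvin was the highest in 1 gene and resveratrol in 2.

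**Figure D2:**
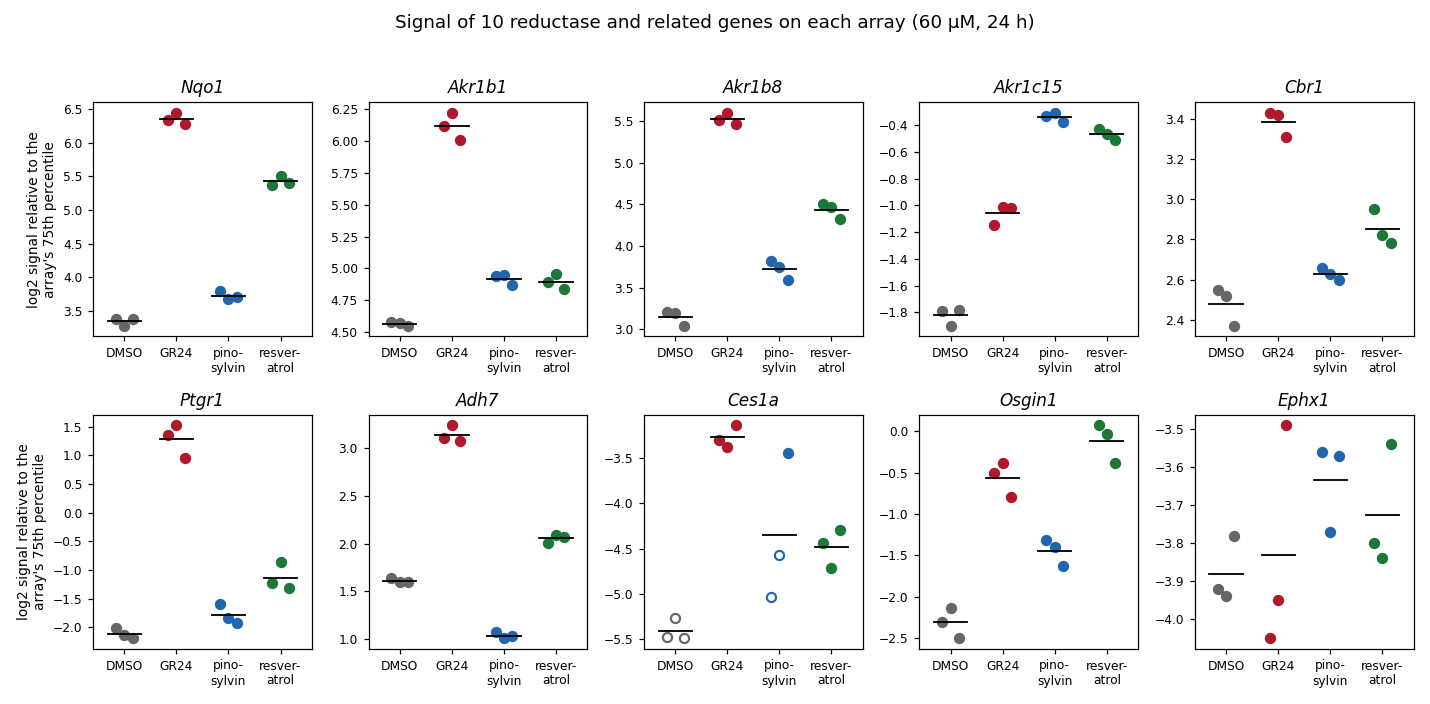
Level of each of the 10 genes on every array (y axis, log2 signal relative to the 75th percentile of the array, on a scale of its own for each gene), by group on the x axis; lines are the means of 3 arrays and open circles are arrays on which the probe was not well above background. The 3 GR24 arrays lie above all others for *Nqo1*, *Akr1b1*, *Akr1b8*, *Cbr1*, *Ptgr1*, *Adh7* and *Ces1a*, and between the control and the stilbenes for *Akr1c15*.

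*Nqo1* had levels of 3.38, 3.28 and 3.38 on the control arrays and 6.33, 6.44 and 6.28 on the GR24 arrays. They were 3.8, 3.67 and 3.7 with pinosylvin and 5.37, 5.50 and 5.40 with resveratrol. The 4 groups formed 4 separate bands with no overlap, the pinosylvin arrays just above the control and the resveratrol arrays nearer to GR24. The log2 difference from the control was 3.00 with GR24 (SE 0.07, adjusted p = 3.55e-10 with limma), which is 7.999-fold. It was 2.08 with resveratrol (adjusted p = 1.15e-07) and 0.38 with pinosylvin (adjusted p = 0.00414). On the log2 scale, the resveratrol change was 69.3% of the GR24 change and the pinosylvin change 12.6% of it. GR24 was above resveratrol by 0.92 (SE 0.07, adjusted p = 1.83e-06) and resveratrol above pinosylvin by 1.70 (SE 0.07, adjusted p = 2.60e-06).

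The aldo-keto reductases use NADPH to reduce carbonyl groups of sugars, lipid aldehydes, steroids and prostaglandins. *Akr1b1*, the gene of aldose reductase, which turns glucose into sorbitol, had levels of 4.58, 4.57 and 4.55 on the control arrays and 6.12, 6.22 and 6.01 with GR24. They were 4.94, 4.95 and 4.87 with pinosylvin and 4.89, 4.96 and 4.84 with resveratrol. The arrays of both stilbenes covered the same narrow range, above all control arrays and far below all GR24 arrays. The log2 difference from the control was 1.55 with GR24 (adjusted p = 2.29e-08), 0.35 with pinosylvin (adjusted p = 0.0055) and 0.33 with resveratrol (adjusted p = 0.00754). Resveratrol minus pinosylvin was -0.02, with a 95% interval from -0.17 to 0.13 (adjusted p = 0.897), so at this precision the order of the stilbenes is not settled for *Akr1b1*. GR24 exceeded resveratrol by 1.22 and pinosylvin by 1.197 (adjusted p = 2.20e-07 and 1.85e-07). The other *Akr1b1* probe gave 1.67 with GR24 (adjusted p = 2.29e-07), while its differences of 0.31 with pinosylvin (adjusted p = 0.0617) and 0.27 with resveratrol (adjusted p = 0.103) were not called.

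*Akr1b8*, whose enzyme reduces aldehydes and retinal, is the neighbour of *Akr1b1* in the genome, with 0 genes of the RefSeq table between them. Its levels were 3.20, 3.19 and 3.04 on the control arrays, 5.51, 5.60 and 5.47 with GR24, 3.82, 3.75 and 3.59 with pinosylvin and 4.51, 4.47 and 4.33 with resveratrol. As in *Nqo1*, the groups did not overlap, and here resveratrol lay about midway between the control and GR24. Against the control, the log2 difference was 2.38 with GR24 (adjusted p = 5.07e-09), 1.29 with resveratrol (adjusted p = 8.37e-06) and 0.57 with pinosylvin (adjusted p = 0.000974). Resveratrol exceeded pinosylvin by 0.72 (SE 0.08, adjusted p = 0.000332) and GR24 exceeded resveratrol by 1.09 (SE 0.08, adjusted p = 2.01e-06). The neighbouring genes therefore differed in the place of resveratrol, at 54.3% of the GR24 log2 change in *Akr1b8* and 21.3% in *Akr1b1*, a comparison of genes that was not tested.

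*Akr1c15*, for a member of the AKR1C branch, whose enzymes act on steroids and other ketones, had the reverse order of compound means. Its levels were -1.79, -1.90 and -1.78 on the control arrays and -1.15, -1.01 and -1.02 with GR24. They were -0.33, -0.31 and -0.38 with pinosylvin and -0.43, -0.47 and -0.51 with resveratrol. Every pinosylvin array lay above every resveratrol array, every resveratrol array above every GR24 array, and every GR24 array above the control. The log2 difference from the control was 1.48 with pinosylvin (SE 0.06, adjusted p = 4.05e-07), 1.35 with resveratrol (adjusted p = 9.28e-07) and 0.76 with GR24 (adjusted p = 2.71e-06). GR24 was below pinosylvin (log2 difference -0.72, adjusted p = 4.61e-06) and below resveratrol (-0.59, adjusted p = 2.44e-05). Resveratrol minus pinosylvin was -0.13, with a 95% interval from -0.27 to 0.01, and was not called (adjusted p = 0.213). The changes with pinosylvin and resveratrol were 195% and 178% of the GR24 change on the log2 scale.

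*Cbr1* encodes carbonyl reductase, a short-chain enzyme that reduces quinones, prostaglandins and foreign ketones. Its levels were 2.55, 2.52 and 2.37 on the control arrays, 3.43, 3.42 and 3.31 with GR24, 2.66, 2.63 and 2.60 with pinosylvin and 2.95, 2.82 and 2.78 with resveratrol. The GR24 arrays stood apart from the rest, while the other groups lay close together without overlapping. Against the control, the log2 difference was 0.91 with GR24 (adjusted p = 2.01e-06) and 0.37 with resveratrol (adjusted p = 0.00582). With pinosylvin it was 0.15, with a 95% interval from -0.01 to 0.31 (adjusted p = 0.205), and with the replicate number as a block its adjusted p was 0.0456. Resveratrol minus pinosylvin was 0.22, with an interval from 0.06 to 0.38 (adjusted p = 0.0687). It was not called here but was called in 11 of 28 alternatives, among them the block (0.0105), quantile normalization (0.0202) and the deposited table (0.0465). The other *Cbr1* probe gave 1.02 with GR24, 0.42 with resveratrol and 0.17 with pinosylvin (adjusted p = 5.18e-07, 0.00188 and 0.126), and on it resveratrol exceeded pinosylvin by 0.25 (adjusted p = 0.0316). GR24 exceeded resveratrol by 0.54 and pinosylvin by 0.76 on the first probe (adjusted p = 0.000124 and 8.49e-06).

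*Ptgr1*, for prostaglandin reductase, which reduces the double bond of unsaturated aldehydes and ketones and inactivates leukotriene B4, had levels of -2.01, -2.13 and -2.19 on the control arrays and 1.36, 1.52 and 0.96 with GR24. They were -1.59, -1.83 and -1.93 with pinosylvin and -1.22, -0.87 and -1.31 with resveratrol. The GR24 arrays were far above all others, the resveratrol arrays formed a band of their own, and the pinosylvin arrays lay just above the control. The log2 difference from the control was 3.39 with GR24 (SE 0.16, adjusted p = 3.75e-08), or 10.5-fold, and 0.98 with resveratrol (adjusted p = 0.00202). With pinosylvin it was 0.33, with a 95% interval from -0.03 to 0.68 (adjusted p = 0.204). GR24 exceeded resveratrol by 2.42 (adjusted p = 7.33e-07), so that the resveratrol change was 28.8% of the GR24 change, beside 69.3% for *Nqo1*. Resveratrol exceeded pinosylvin by 0.65 (adjusted p = 0.0215), a call that was lost without pinosylvin replicate 2 or 3 or resveratrol replicate 2 (adjusted p = 0.0735, 0.0715 and 0.0809) and with no filter on dim probes (0.0647).

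*Adh7*, for an alcohol dehydrogenase that oxidises retinol and longer alcohols, was the single gene of the 10 that was called lower with any compound. Its levels were 1.64, 1.60 and 1.60 on the control arrays, 3.11, 3.24 and 3.08 with GR24, 1.07, 1.01 and 1.03 with pinosylvin and 2.01, 2.09 and 2.07 with resveratrol. The arrays of each group lay within a narrow band, and the bands were well apart, with pinosylvin below the control and both other compounds above it. *Adh7* rose by 1.53 on the log2 scale with GR24 (SE 0.06, adjusted p = 1.07e-08) and by 0.44 with resveratrol (adjusted p = 0.000685). With pinosylvin it fell by 0.58 (adjusted p = 0.000108). The pinosylvin change was -37.6% of the GR24 change, and the resveratrol change 29.0% of it. Resveratrol exceeded pinosylvin by 1.02 (SE 0.06, adjusted p = 1.46e-05), and GR24 exceeded pinosylvin by 2.11 (adjusted p = 1.90e-09).

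*Ces1a* encodes a carboxylesterase, an enzyme that cleaves esters of drugs and lipids, and its probe was dim. The levels were -5.48, -5.27 and -5.49 on the control arrays, 0 of which were well above background, and -3.30, -3.38 and -3.14 on the GR24 arrays, all 3 of which were. With resveratrol they were -4.44, -4.72 and -4.30, all well above background, and with pinosylvin -5.03, -4.57 and -3.44, of which only replicate 3 was. The GR24 arrays were the highest, and pinosylvin replicate 3 reached nearly to them while the other pinosylvin arrays lay between the control and GR24. With GR24 the fitted log2 difference from the control was 2.14 (95% interval 1.44 to 2.84, adjusted p = 0.000187). No control signal fell to the floor of its array, so the bound would equal this fitted value and is not given. With normexp, which also added an offset of 50 and used the median signal, the fitted value went down to 0.65, where it was still called.

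Pinosylvin minus control for *Ces1a* was 1.07 (95% interval 0.36 to 1.77, adjusted p = 0.0443), a call lost in 17 of 27 alternatives, with normexp at 0.29 and, before quantile normalization, at 0.25. It was lost without any 1 of the control, GR24 or resveratrol arrays (adjusted p from 0.0562 to 0.112) and without pinosylvin replicate 2 (0.0717). The log2 difference was 0.57 on slide 1 and 2.05 on slide 2, and 0.61 without pinosylvin replicate 3, where it was still called. Resveratrol minus control was 0.93 (95% interval 0.22 to 1.63) and not called (adjusted p = 0.0735), and with normexp it went down to 0.097. It was called in 8 of 27 alternatives, such as with the replicate number as a block (0.0433) and without pinosylvin replicate 1 or 3 (0.0331 and 0.00248). GR24 exceeded resveratrol by 1.21 (adjusted p = 0.00817), or 0.52 at the lowest, with normexp, and pinosylvin by 1.07 (adjusted p = 0.0141). The latter call was lost without pinosylvin replicate 2 (0.0504) and with only the arrays of both groups (0.0592), and the difference was 1.46 on slide 1, 0.30 on slide 2 and as low as 0.36 with normexp. Resveratrol minus pinosylvin was -0.14, with a wide 95% interval from -0.84 to 0.56.

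*Osgin1*, for a growth inhibitor induced by oxidative stress, is the gene in which resveratrol was the highest group. Its levels were -2.30, -2.13 and -2.50 on the control arrays and -0.50, -0.39 and -0.80 with GR24. They were -1.31, -1.40 and -1.63 with pinosylvin and 0.07, -0.04 and -0.38 with resveratrol. The groups did not overlap, though the lowest resveratrol array, replicate 3, was level with the highest GR24 array. The log2 difference from the control was 2.20 with resveratrol (SE 0.15, adjusted p = 1.36e-05), 1.75 with GR24 (adjusted p = 3.75e-06) and 0.87 with pinosylvin (adjusted p = 0.00331). Resveratrol exceeded pinosylvin by 1.33 (SE 0.15, adjusted p = 0.000324).

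GR24 was below resveratrol for *Osgin1*, with a log2 difference of -0.45 (adjusted p = 0.0309). This call was the less firm of its comparisons: it was lost without GR24 replicate 1 or 3 (adjusted p = 0.0532 and 0.109) and without resveratrol replicate 1 or 2 (0.112 and 0.0899). It was also lost in the deposited table (0.0549), with no filter on dim probes (0.0740) and with only the arrays of both groups (0.0578). The difference kept its direction in all 28 alternatives, between -0.58 and -0.33, and was -0.46 on slide 1 and -0.42 on slide 2.

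*Ephx1*, for the microsomal epoxide hydrolase, had levels of -3.92, -3.94 and -3.78 on the control arrays and -4.05, -3.95 and -3.49 with GR24. They were -3.56, -3.77 and -3.57 with pinosylvin and -3.80, -3.84 and -3.54 with resveratrol. The GR24 arrays spanned the whole range of the gene, with replicate 3 the highest and replicate 1 the lowest of all 12, and the groups overlapped except for pinosylvin and the control. No difference was called. From the control, GR24 differed by 0.05 (95% interval -0.27 to 0.36), pinosylvin by 0.25 (-0.07 to 0.56) and resveratrol by 0.15 (-0.16 to 0.47). Over the alternatives the pinosylvin difference ran from 0.035 to 0.32 and the resveratrol difference from -0.035 to 0.28, never called. Resveratrol minus pinosylvin was -0.10 (-0.41 to 0.22) and GR24 minus resveratrol -0.10 (-0.42 to 0.21). GR24 minus pinosylvin was -0.20 (-0.51 to 0.12, adjusted p = 0.266), and it was called without GR24 replicate 3 (-0.37, adjusted p = 0.0171) and on slide 1 alone (-0.34, adjusted p = 0.0161).

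Pinosylvin and resveratrol, which differ by a hydroxyl group, differed in response in *Nqo1*, *Akr1b8*, *Ptgr1*, *Adh7* and *Osgin1*, always with resveratrol higher. Of all tested probes, 6.85% were called higher with resveratrol than with pinosylvin and 7.68% lower. The differences were 1.70 for *Nqo1*, 1.33 for *Osgin1*, 1.02 for *Adh7* and 0.72 for *Akr1b8*. For *Ptgr1* the difference was 0.65, a call lost in 4 of 28 alternatives. In *Adh7* the stilbenes moved away from the control in opposite directions. In *Akr1b1*, *Akr1c15*, *Ces1a* and *Ephx1* no difference between them was called. For *Cbr1* it was not called on the probe of higher signal but was on the other and in 11 of 28 alternatives. Among the genes without a call, the 95% intervals were narrowest for *Akr1c15* and *Akr1b1* and widest for *Ces1a*. GR24, which is not a stilbene, stood above both stilbenes in 7 genes, below both in *Akr1c15*, and between them in *Osgin1*. The first of these counts rests on genes picked for their rise with GR24 and is a description only.

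**Figure D3:**
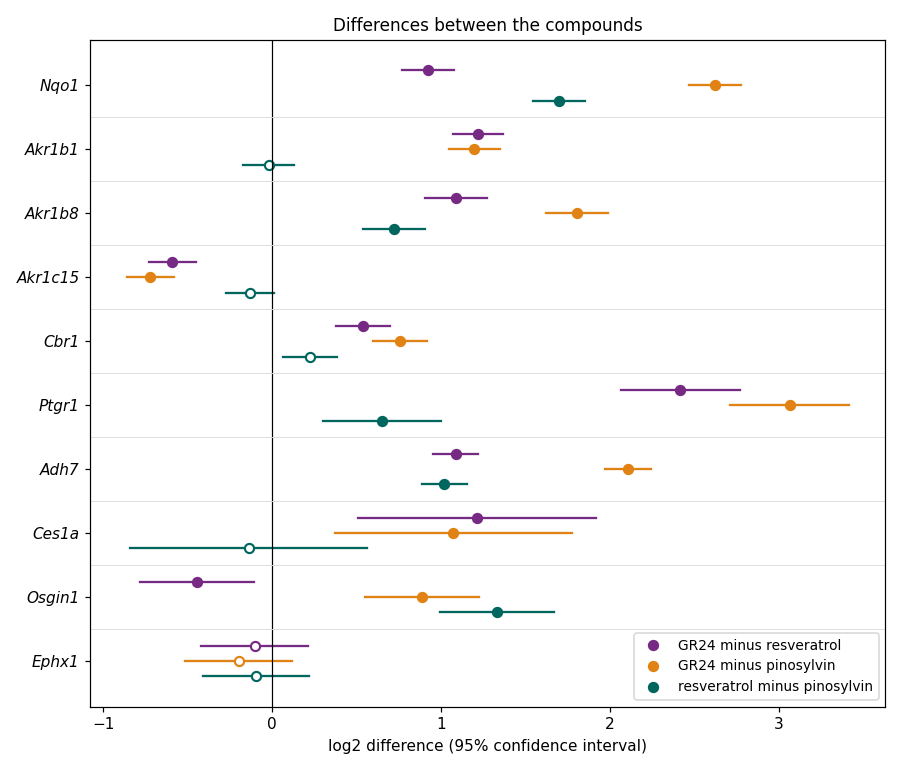
Log2 differences between the compounds for the 10 genes (x axis, log2), with bars for the 95% confidence interval; filled points were called and open points were not. GR24 minus resveratrol lies to the right of zero for *Nqo1* at 0.92 and to the left for *Akr1c15* at -0.59 and *Osgin1* at -0.45, and resveratrol minus pinosylvin is not called below zero for any gene.

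Replicates 1 and 2 of all 4 groups were on slide 1 and replicate 3 of each was on slide 2. The differences above kept their sign on both slides, apart from *Ces1a* between the stilbenes and comparisons of *Ephx1*, of which none was called over both slides. GR24 minus resveratrol for *Akr1c15* was -0.63 on slide 1 and -0.52 on slide 2, and resveratrol minus pinosylvin for *Nqo1* was 1.70 on both. The pinosylvin difference of *Adh7* from the control was -0.58 on slide 1 and -0.57 on slide 2. Each treatment was in the same column of the slides throughout, so column and treatment cannot be told apart.

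The families of these genes were counted with the genes above included, and no family was tested against all probes, of which 31.5% were higher and 25.5% lower with GR24, 8.28% and 8.27% with pinosylvin and 7.99% and 8.99% with resveratrol. Of 20 aldo-keto reductase genes on the arrays, 10 were tested, and 4 were higher and 5 lower with GR24 than in the control (median -0.20). *Akr1c3* fell by 1.87 on the log2 scale with GR24 (adjusted p = 7.80e-09), *Akr1c12* by 1.22 (adjusted p = 1.69e-06) and *Akr1c19* by 1.07 (adjusted p = 2.06e-06). *Akr1c12l1* and *Akr1e2*, named after their values were seen, were the others that fell, and *Akr7a2*, named likewise, rose beside *Akr1b1*, *Akr1b8* and *Akr1c15*. With pinosylvin 5 were higher and 0 lower (median 0.23), with *Akr1c19* at 0.45 (adjusted p = 0.00544). On slide 1 alone *Akr1c19* was at 0.35 and its call was lost (0.0598). With resveratrol 4 were higher and 1 lower (median 0.18). The 1 was *Akr1c3* (-0.23, adjusted p = 0.0496), a call lost whichever array was left out (0.0514 to 0.171). GR24 was above resveratrol in 2 of the 10 and below it in 7, where 27.4% of all probes were higher and 23.9% lower. Of those that rose with GR24 all but *Akr7a2* are genes described above. *Akr1c15* thus rose with GR24 while other genes of the AKR1C branch fell. Probe sequences were not examined, and cross-hybridisation between these similar genes was not tested.

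Among 27 genes of carbonyl and other short-chain reductases 26 were tested, 12 were higher and 6 lower with GR24 (median 0.27), 2 were higher and 4 lower with pinosylvin and 7 higher and 5 lower with resveratrol. *Cbr3*, the close relative of *Cbr1*, rose by 1.25 with GR24 (adjusted p = 1.23e-05) and by 0.55 with resveratrol (adjusted p = 0.0145, and 0.0553 without resveratrol replicate 1 or 0.0532 without replicate 2). *Dhrs3*, which reduces retinal, had resveratrol first as *Osgin1* did: it rose by 1.72 with resveratrol, 0.94 with GR24 and 0.78 with pinosylvin, and GR24 was below resveratrol by a log2 difference of -0.78 (adjusted p = 3.83e-05). *Rdh10* and *Rdh13*, for retinol dehydrogenases, rose by 1.45 and 1.31 with GR24 (adjusted p = 2.63e-06 and 1.56e-05). With resveratrol *Rdh10* fell by 0.45 (adjusted p = 0.0269), a call lost without control replicate 2 or 3 (0.0722 and 0.0814), without any 1 of the resveratrol arrays (0.0525, 0.0969 and 0.0603) and in the deposited table (0.1). With normexp before quantile normalization the difference was -0.18 and not called (0.16). The call was also lost with no filter on dim probes (0.0794), with only the arrays of both groups (0.053) and on slide 1 alone (0.0827). *Dhrs7c*, a gene of the sarcoplasmic reticulum of muscle, fell by 3.07 with GR24 (adjusted p = 1.27e-08) and by 1.68 with resveratrol (adjusted p = 1.85e-05). *Hpgd*, whose enzyme oxidises prostaglandins, was well above background on the 3 control arrays alone and passed the filter only through them. Its lower level with the compounds is thus not independent of that filter, and the values are a description. It was at least 2.69-fold higher in the control than with GR24 (adjusted p = 6.83e-05). It was also called lower with pinosylvin, at least 1.94-fold (adjusted p = 0.0159), and with resveratrol (adjusted p = 0.0208). Both of these calls were lost in the deposited table (0.0937 and 0.0879) and without control replicate 1 (0.06 and 0.0762). They were also lost with normexp before quantile normalization (0.077 and 0.0694), and each alone in further settings. The resveratrol call was lost with no filter on dim probes too (0.055). The bounds hold for this processing only.

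Of 14 quinone and medium-chain reductase genes tested, 7 were higher and 4 lower with GR24 (median 0.16), and 0 were lower with pinosylvin or resveratrol. The genes higher with these were *Nqo1* with both and *Ptgr1* with resveratrol, so no other gene of this list was called with a stilbene. *Fdxr*, for ferredoxin reductase, rose by 1.48 with GR24 (adjusted p = 3.75e-07). All 4 tested alcohol dehydrogenase genes of 7 were higher with GR24 (median 1.37), 2 were higher with resveratrol, and *Adh7* alone was lower with pinosylvin. *Adhfe1* rose by 1.41 with GR24 (adjusted p = 3.21e-06), and *Sord*, for the sorbitol dehydrogenase that follows aldose reductase in the polyol pathway, rose by 1.33 (adjusted p = 1.17e-07) and with resveratrol by 0.54 (adjusted p = 0.000683).

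Aldehyde dehydrogenases oxidise the aldehydes that reductases turn into alcohols. Of 18 on the arrays 12 were tested, and 2 were higher and 5 lower with GR24 (median -0.17). *Aldh3a1* fell by 1.11 with GR24 (adjusted p = 3.15e-06). With pinosylvin 4 were higher and 2 lower, and with resveratrol 3 and 1. Among 15 esterases on the arrays 6 were tested, 2 higher and 2 lower with GR24, 1 and 1 with pinosylvin, 0 and 2 with resveratrol. Their median difference with GR24 of -0.03 turned to above 0 under 4 of the other scalings, so it has no direction. Those called with pinosylvin were *Ces1a*, often lost as given above, and *Ces5a* (-0.49, adjusted p = 0.0347). The latter call was lost without any 1 of the pinosylvin arrays (0.0826, 0.0751 and 0.0915), without control replicate 1 or 2 (0.11 and 0.105) and with no filter on dim probes (0.1). *Ces4a* fell by 1.84 with GR24 (adjusted p = 1.28e-05) and by 1.16 with resveratrol (adjusted p = 0.00200), and *Ces5a* fell by 1.03 with resveratrol (adjusted p = 0.000618) and by 0.90 with GR24 (adjusted p = 0.000226). Of 4 epoxide hydrolases 2 were tested, 0 were higher and 1 was lower with GR24, and 0 were called with pinosylvin or resveratrol. *Osgin1* was the tested gene of its family.

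The tested Nrf2 target genes of other enzyme classes had all been picked by the study, from these arrays, as increased by GR24, so their GR24 counts and its first place are not evidence about the compounds. All 11 tested were higher with GR24 (median 1.60), 10 with resveratrol (median 1.38) and 8 with pinosylvin (median 0.44), and 0 were lower with any compound. GR24 was above resveratrol in 8 and above pinosylvin in 11, and resveratrol was above pinosylvin in 10, where 27.4%, 29.6% and 6.85% of all probes were called higher. *Gsta1*, for a glutathione S-transferase, rose by 4.58 with GR24, 3.35 with resveratrol and 2.79 with pinosylvin, and *Gstp1* by 2.36, 1.91 and 1.402. *Hmox1*, for heme oxygenase, rose by 4.08, 1.54 and 0.86 in the same order of compounds. *Srxn1* and *Txnrd1*, which repair and reduce thiol proteins, had GR24 at 2.32 and 1.60 and resveratrol close by at 1.93 and 1.38. With pinosylvin they were at 0.44 (adjusted p = 0.0383) and 0.29 (adjusted p = 0.0648, not called). The *Srxn1* call with pinosylvin was lost in other settings, such as no filter on dim probes (0.112) and without control replicate 3 (0.123). The difference between GR24 and resveratrol was 2.54 for *Hmox1* (adjusted p = 1.11e-07) and 0.38 for *Srxn1* (adjusted p = 0.0273), and for *Txnrd1* it was 0.22 and not called (adjusted p = 0.0759).

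Of 8 target genes of the aryl hydrocarbon receptor on the arrays, 6 were tested, and *Cyp1a1* and *Cyp1a2*, its best known targets, were not among them. With GR24 2 were higher and 1 was lower (median 0.01), with pinosylvin 1 and 1 (median -0.22) and with resveratrol 1 and 0 (median 0.06). The 2 higher with GR24 were *Nqo1* and *Nfe2l2*, the gene of Nrf2. Both had been picked by the study, from these arrays, as increased by GR24, so nothing is read from that count.

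The pattern of *Nqo1* over the 12 arrays was set against 1754 named genes well above background on all of them, whose group means ranged over at least 1 on the log2 scale. The genes most like it, by Pearson's r, were *Pgd* (0.993), *Idh1* (0.993), *Kitlg* (0.990), *Trim16* (0.989) and *Bambi* (0.988). *Akr1b1* was most like *Slc2a1* (0.994) and *Brd1* (0.994), and *Akr1b8* most like *Mgst1* (0.996) and *Mgst2* (0.995). For *Cbr1* they were *Htatip2* (0.995) and *Slc16a6* (0.993), for *Ptgr1* *Pcsk4* (0.997) and *Rab20* (0.996) and for *Adh7* *Itpka* (0.985) and *Casp8* (0.985). The arrays fall into 4 groups, so r mostly reflects group means, and it is a description.

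The remaining genes had lower r with the genes most like them. For *Akr1c15* the first were *Aox1* (0.963) and *Pck2* (0.898), and for *Osgin1* *Ripor2* (0.9747) and *Slc7a11* (0.966), the gene of the cystine transporter. For *Ces1a* they were *Tle3* (0.918) and *Fhod3* (0.893), and for *Ephx1* *Hps1* (0.667) and *Vom2r35* (0.645). Among the 10 genes themselves, r with *Nqo1* was 0.972 for *Akr1b8*, 0.934 for *Cbr1*, 0.906 for *Ptgr1*, 0.895 for *Adh7*, 0.850 for *Osgin1*, 0.837 for *Akr1b1* and 0.747 for *Ces1a*. It was 0.260 for *Akr1c15* and -0.072 for *Ephx1*.

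Promoter windows from RefSeq (assembly GRCr8), 250 bases before to 50 after a start, were found for 8 of the 10 genes, in 9 windows, and for none of *Akr1b1* and *Ptgr1*. They were searched on both strands for the core of the antioxidant response element, TGACNNNGC, and of the xenobiotic response element, GCGTG, which the aryl hydrocarbon receptor binds. The first is in 12.1% of 33469 rat windows and the second in 29.7%. Of the 8 genes, 2 held the first, *Akr1c15* and *Ephx1*, and 5 held the second, *Nqo1*, *Cbr1*, *Adh7*, *Ces1a* and *Osgin1*. A match describes letters in a window and is neither a site nor a cause, and these windows leave out more distant elements.

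The windows of *Akr1c15* and *Nqo1* are shown because GR24 was below both stilbenes in the first gene and above both in the second. That of *Akr1c15* lies at chr17:71117908-71118207 on the minus strand, with capitals for the antioxidant response element core, which begins 140 bases before the start on the opposite strand and 69 bases before it on the strand of the gene. That of *Nqo1* lies at chr19:52220218-52220517 on the minus strand, with capitals for the xenobiotic response element core, 10 bases before the start on the opposite strand.
*Akr1c15*: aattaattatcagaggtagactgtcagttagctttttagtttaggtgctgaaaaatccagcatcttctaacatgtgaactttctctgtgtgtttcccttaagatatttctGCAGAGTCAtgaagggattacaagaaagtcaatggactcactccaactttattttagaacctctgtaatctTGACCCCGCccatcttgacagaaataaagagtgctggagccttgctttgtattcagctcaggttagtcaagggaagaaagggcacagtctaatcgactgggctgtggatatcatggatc
*Nqo1*: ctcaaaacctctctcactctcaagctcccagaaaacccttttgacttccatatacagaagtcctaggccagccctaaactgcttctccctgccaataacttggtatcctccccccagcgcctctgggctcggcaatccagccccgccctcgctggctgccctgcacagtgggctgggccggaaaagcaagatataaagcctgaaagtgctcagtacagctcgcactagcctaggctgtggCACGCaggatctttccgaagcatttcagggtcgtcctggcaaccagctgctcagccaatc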

How the data were processed

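RNA of rat L6 myotubes of 4 groups was measured on 12 Agilent 1-colour arrays. The authors deposited Feature Extraction 12.0.0.7 output for each array, whose processed signal is an intensity with background subtracted within the array and, per the file headers, no scaling between arrays. They also deposited a table of log2 values for 25848 probes, used as an alternative. The medians of its columns were 9.22, 9.21 and 9.22 (control), 9.24, 9.24 and 9.24 (GR24), 9.21, 9.21 and 9.21 (pinosylvin) and 9.22, 9.22 and 9.22 (resveratrol). Set against the log2 scanner signal, its columns correlated at 0.992 to 0.995 with slopes of 0.871 to 0.915, so the scale is logarithmic and taken as log2, genes are not centred and the direction is that of the signal, while the normalization behind it stays unknown.

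Here, control spots and outlier spots were left out, spots of a probe were averaged, and each array's 75th percentile over probes was subtracted from its log2 processed signal. Of 45598 probes 24279 were tested, those with signal well above background throughout at least 1 group, and 87.4% of these had it on every array. RefSeq accessions, without version, named 21109 probes through a table of GRCr8. A gene was represented by its tested probe of highest mean. Group means of the 12 arrays were fitted together in limma 3.58.1 (R 4.3.3) with eBayes, and p-values were adjusted by Benjamini-Hochberg across the tested probes and called at 0.05. The fit was checked on simulated data with independent noise on each array, which does not cover arrays that deviate together. Where no array of a group had a probe well above background, the fold is a bound: the brighter mean is set against the dim signal or, if higher, the faintest signal of that array still well above background. No bound is printed where it equals the fitted fold, as for *Ces1a*.

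Same-numbered arrays deviated together from their group means (correlations 0.191 to 0.744 over the pairs of groups, replicate numbers from the labels), so the replicate number was also fitted as a block. Other alternatives were quantile normalization, normexp (offset 50, on the median signal and median background, since the files hold no mean signal) with either normalization, the deposited table, other filters and percentiles, fits of fewer arrays, slide as a block, and each array left out. Listed genes were named where they changed by at least 1 (log2) with a compound, at most 6 a list. The members and lists were chosen with earlier results of these data known.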

Additional observations from a re-analysis of the deposited data

Results flagged for a closer look

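*Adh7* changed in opposite directions with different compounds, and the differences were tested directly. GR24 minus pinosylvin was 2.11 on the log2 scale and resveratrol minus pinosylvin was 1.02 (adjusted p = 1.90e-09 and 1.46e-05 with limma). Every pinosylvin array lay below every control array, and every GR24 and resveratrol array lay above. Both differences were called in all 28 alternatives, from 2.03 to 2.20 and from 0.95 to 1.04.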

How the results depend on the processing

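Each of the 60 differences of the 10 genes was recomputed under 28 alternatives, of which the 75th percentile over all spots and slide 1 alone were chosen after seeing the data. No called difference changed direction. All calls of *Nqo1*, *Akr1b1*, *Akr1b8*, *Akr1c15* and *Adh7* held in all of them. Genes called stayed at 8 to 9 for GR24 minus control, resveratrol minus control and GR24 minus resveratrol. The number ran from 8 to 10 for GR24 minus pinosylvin, 6 to 8 for pinosylvin minus control and 4 to 6 for resveratrol minus pinosylvin. Keeping just the probes bright on every array left *Ces1a* out.

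Reversed differences were never called and, apart from *Ces1a* between the stilbenes, were small. Their cause was not tested. Resveratrol minus pinosylvin for *Akr1b1* was 0.023 with quantile normalization, 0.021 with normexp before it and 0.013 in the deposited table, and from -0.053 to 0.0086 with an array left out. For *Ces1a* it was 0.22 on slide 1 alone and 0.31 without pinosylvin replicate 3, beside -0.14 over all arrays and -0.86 on slide 2. With an array left out it ran from -0.48 to 0.31. For *Ephx1* it was 0.011, 0.029 and 0.057 with quantile normalization, normexp before it and the deposited table, and GR24 minus pinosylvin was 0.016 and 0.039 under the last 2. With normexp and the 75th percentile, *Ephx1* had -0.0082 for GR24 and -0.035 for resveratrol minus control and 0.027 for GR24 minus resveratrol, which was 0.0074 with the percentile over all spots. GR24 minus control was -0.072 on slide 1 alone. With an array left out, GR24 minus control was from -0.12 to 0.16 and GR24 minus resveratrol from -0.27 to 0.0056.

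Pinosylvin was highest in 1 gene and resveratrol in 2, against 2 and 1, with quantile normalization, with normexp before it and in the deposited table. Probes called numbered 4019 for pinosylvin, 4123 for resveratrol and 3528 for resveratrol minus pinosylvin. They were 2409, 2680 and 1975 with no filter on dim probes, 6947, 6769 and 6323 with the replicate block and 7074, 6869 and 6443 with the slide block, and 2479 for pinosylvin from the arrays of both groups alone. Resveratrol minus pinosylvin had from 2148 to 3683 with an array left out, with 2148 without pinosylvin replicate 2, 2237 without resveratrol replicate 2 and 2311 without resveratrol replicate 3. The replicate block changed no call of the 10 genes beyond those given for *Cbr1* and *Ces1a*. With the percentile over all spots, 8707 probes were higher and 4875 lower for GR24 minus resveratrol (64.1% higher), beside 6662 and 5811. Its median over all probes shifted by 0.11. GR24 minus control then had 9223 higher and 5358 lower, beside 7658 and 6196. Resveratrol minus pinosylvin had 1773 and 2522, beside 1664 and 1864. That balance turned to 2000 and 1590 with quantile normalization, 1889 and 1598 with normexp before it and 1614 and 1465 in the deposited table.

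L6 is 1 rat line, and values are of RNA from 3 cultures a group, 24 h after 1 dose. Dim signals near background, as for *Ces1a*, changed with normexp, which altered the background subtraction, the offset and the signal measure together.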
